A study of Homo sapiens with 12 samples.

Results

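Cadherins are calcium-dependent adhesion proteins of the cell surface. The classical cadherins bind a cadherin of the neighbouring cell with their outer domains and, through catenins, the actin cytoskeleton with their inner tail. The desmosomal cadherins (desmogleins and desmocollins) bind, through plakoglobin, plakophilins and desmoplakin, the keratin filaments that give an epithelium its strength. Protocadherins give cells, above all neurons, a recognition label, and the giant FAT and CELSR cadherins take part in growth control and in the polarity of cells within a sheet.

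The genes of these families were chosen by symbol: the numbered CDH genes, the protocadherins of the alpha, beta and gamma clusters and outside them, desmocollins 1 to 3, desmogleins 1 to 4, FAT1 to FAT4 and CELSR1 to CELSR3. Of 109 such symbols in the RefSeq gene table, 104 had a probe on the array, out of 20708 genes with a probe in all. After a filter on dim probes 68 of the 104 could be tested, out of 18253 genes tested on the whole array.

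Expression was measured in MDA-MB-231, an established human breast cancer cell line with mesenchymal traits, on 12 single-color exon arrays, 3 for each of 4 groups. The cntrl cells received negative control oligonucleotides, and the mimic145 cells a mimic of the microRNA miR-145-5p at 5 nM. The sirnaAGO2 cells received a Dicer-substrate siRNA against AGO2 at 500 pM for 72 h, and the sirnaAGO2+mimic145 cells received both. Every sample is listed with a mimic or control mimic at 5 nM and an siRNA or control siRNA at 500 pM for 72 h. The labels do not say which control oligonucleotides the mimic145 and sirnaAGO2 cells received. AGO2 encodes an Argonaute, a member of the protein family that carries microRNAs to their target transcripts. The design asks what the mimic changes in cells with and without AGO2 silencing. All groups come from 1 cell line and from transient transfection, and nothing in the labels says that replicates were separate cultures, so that p-values measure the spread between these arrays only. AGO2 itself, the targeted gene, fell by 0.71 on the log2 scale from cntrl to sirnaAGO2 cells (standard error, SE, 0.08, limma adjusted p = 0.00493). Of its signal 61.0% was left, with every sirnaAGO2 array below every cntrl array (exact permutation test, p = 0.1, the smallest that 3 arrays against 3 allow). With the mimic AGO2 rose by 0.28 in control cells (SE 0.08, limma adjusted p = 0.0298). In silenced cells the mimic left it at a difference of -0.06 (limma adjusted p = 0.607).

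The mature sequence of hsa-miR-145-5p is shown because its seed (bases 2 to 8, in capitals) is the part that pairs with target transcripts. RefSeq places it on the forward strand of GRCh38.p14, at chr5:149430661-149430683.

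hsa-miR-145-5p: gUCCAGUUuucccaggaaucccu

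A transcript site that pairs with this seed reads AACUGGA. Whether transcripts of the cadherin genes carry such a site was not analysed here.

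Values are log2 of the normalized signal, averaged over the probes of a gene that were kept. A probe was kept where some group had it detected, that is called well above background by the scanner software, in all 3 replicates, so that a gene could enter through the group in which it is high. Detection reached 60.5% to 77.3% of spots per array, and the number of arrays limits the precision. A difference was called where limma's adjusted p was under 0.05, adjusted by Benjamini-Hochberg over all 18253 genes. The fit had the replicate number as a block, since arrays with the same number deviated together. Levels are compared for a gene between groups and never between genes, and in a culture a smaller share of expressing cells cannot be told from less RNA per cell.

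A smaller share of the family's probes passed the filter on dim probes than of all probes assigned to genes. Of 884 probes for the 104 genes, 346 (39.1%) were kept, against 68.2% of all probes assigned to genes. No probe was detected on any array for 26 of the genes. These were mostly clustered protocadherins, 10 alpha, 8 beta and 6 gamma genes, together with 2 protocadherins outside the clusters. The share of kept probes was 69.2% for the CELSR genes and 63.7% for the FAT genes. It was 46.2% for the type I cadherins, 31.9% for type II cadherins, 32.3% for desmogleins and 17.6% for desmocollins. All probes of 7 genes were detected on all 12 arrays, and the type II cadherin CDH11 was one of them, with 13 probes. PCDH1, a protocadherin expressed in epithelia, had 3 of 6 probes kept, each detected on all 12 arrays. The tested genes had between 1 and 31 kept probes, and 38 of the 68 rested on 1 or 2. Each probe is assigned to 1 transcript, and genes of the protocadherin clusters have closely related sequences, so that a probe could also read a neighbouring cluster gene.

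**Figure D1:**
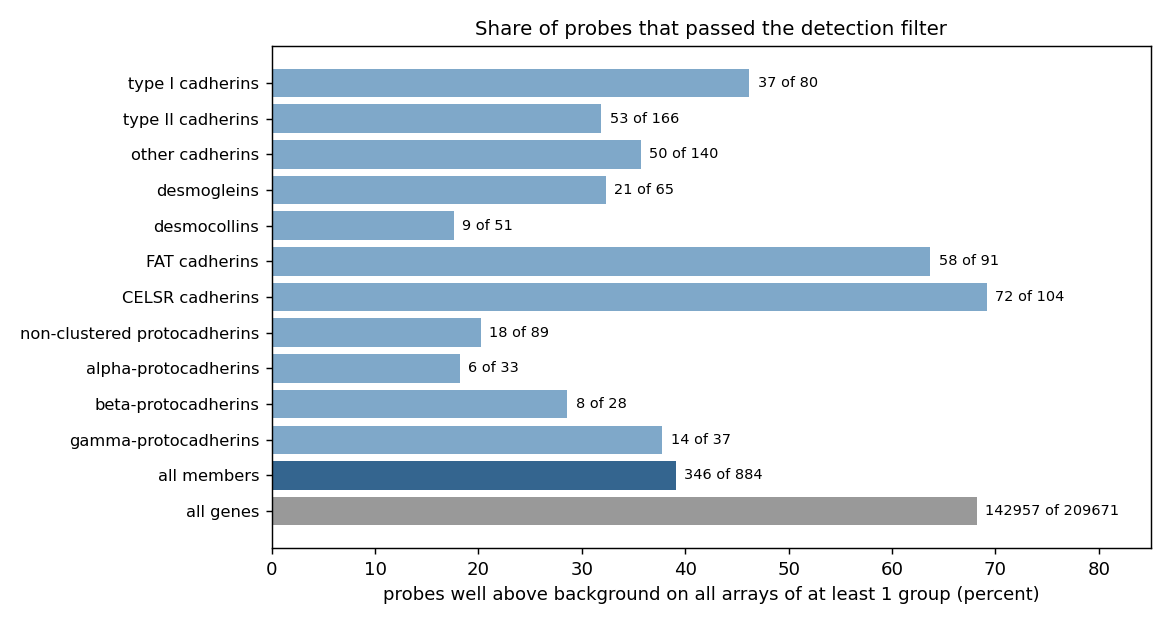
Share of array probes (percent, x axis) that were detected in all replicates of 1 or more groups, for each family, for all 104 members and for all genes on the array. Numbers beside the bars give kept and all probes: 346 of 884 were kept for the members, and the share is highest for CELSR and FAT genes.

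The miR-145-5p mimic changed 9 of the 68 tested members in control cells, 5 higher and 4 lower. Over all genes the same comparison called 22.6% (11.6% higher and 11% lower), so that the family's share, 13.2%, was below that of the array. The genes that rose were the classical cadherins CDH11, CDH4 and CDH24, the protocadherin PCDH1 and the desmoglein DSG3. The genes that fell were the desmosomal cadherins DSG2 and DSC2, the giant cadherin FAT4 and the protocadherin PCDHB10. The median difference was 0.02 over the members and 0.01 over all genes. Scaling by the 75th percentile in place of quantile normalization gave 6 genes higher and 2 lower. The share of all genes called rose with mean signal level, from 14% in the lowest 4564 genes to 30.9% in the highest 4563. The lowest set held 32 of the 68 members, and the part of signal level in the family's share was not tested. Of the members with 3 or more kept probes 8 of 30 were called, and of those with 1 or 2 kept probes 1 of 38. The share of all genes by number of kept probes is not given here.

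CDH11, a type II classical cadherin typical of mesenchymal cells, had values of 8.45, 8.38 and 8.40 on the cntrl arrays of replicates 1 to 3, and of 9.48, 9.43 and 9.38 on the mimic145 arrays. All mimic145 arrays lay far above all cntrl arrays. The difference was 1.02 (SE 0.07), a fold of 2.03, with adjusted p = 9.4e-05. In cells with AGO2 silenced the values were 8.31, 8.32 and 8.02 without and 8.69, 8.72 and 8.60 with the mimic. These groups did not overlap either, but lay closer together. CDH11 rose there by 0.46 (SE 0.07, fold 1.37, adjusted p = 0.0154). The difference of the effects, silenced minus control cells, was -0.56 (SE 0.10). It had the same sign in all 3 replicates and an unadjusted p of 0.000415, and it did not pass the adjustment over all genes (adjusted p = 0.0788).

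The probes of CDH11 moved as one. All 13 were higher with the mimic in control cells, in every replicate, by 0.78 to 1.22. In silenced cells all 13 were higher again, by 0.20 to 0.92, and the estimate of all 13 was smaller there.

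CDH4 (R-cadherin), a type I classical cadherin best known from retina and brain, had values of 6.68, 7.11 and 6.68 in cntrl and of 7.68, 8.0 and 7.79 in mimic145 cells. The groups were fully separate, and replicate 2 was the highest in both. CDH4 rose by 1.00 (SE 0.07, fold 2.00, adjusted p = 9.4e-05). In silenced cells it went from 7.15, 7.33 and 7.12 to 7.59, 7.99 and 7.70, a rise of 0.56 (SE 0.07, fold 1.47, adjusted p = 0.00816). All 16 kept probes were higher with the mimic in both backgrounds, by 0.16 to 1.82 in control cells, and 2 of them were not detected on any cntrl array.

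CDH4 also rose on AGO2 silencing alone, by 0.38 over cntrl (SE 0.07, fold 1.3, adjusted p = 0.0337), with the lowest sirnaAGO2 array just above the highest cntrl array. This call held in 7 of 24 alternative limma settings, and was lost on leaving out any array of either group. The mimic took CDH4 to nearly the same level with and without silencing, 7.76 and 7.82. The difference of the effects was -0.44 (SE 0.10, unadjusted p = 0.00178, adjusted p = 0.098), and the estimates of all 16 probes were smaller in silenced cells.

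PCDH1 had values of 9.10, 9.26 and 8.75 in cntrl and of 9.42, 9.76 and 9.89 in mimic145 cells. The groups did not overlap, and the gap within a replicate ran from 0.32 to 1.14. PCDH1 rose by 0.65 (SE 0.14, fold 1.57, adjusted p = 0.00977). The study gives the opposite direction for this gene. The deposited log2 table gave the same difference, 0.65, and with the median over probes it was 0.32 and not called (adjusted p = 0.204). In silenced cells the values were 9.04, 9.12 and 9.03 without and 9.38, 9.5 and 9.55 with the mimic. These groups were separate too, and the difference of 0.41 (SE 0.14) did not pass (adjusted p = 0.093). The 3 kept probes differed among themselves, by 1.08, 0.80 and 0.08 in control cells and by 0.74, 0.68 and -0.18 in silenced cells. They were all assigned to NM_002587, and neither probe of the other transcript, NM_032420, was kept. The 3 probes that were not kept were higher as well, by 0.14 to 0.63 in control cells.

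CDH24, another type II cadherin, was higher by 0.30 with the mimic (SE 0.06, adjusted p = 0.00955). Its values were 7.10, 7.45 and 7.12 in cntrl and 7.41, 7.70 and 7.47 in mimic145 cells, so that the groups overlapped while each replicate gained between 0.25 and 0.35. Of its 12 kept probes 11 were higher and 1 differed by -0.71. In silenced cells CDH24 differed by 0.24 (adjusted p = 0.0537).

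DSG3, the desmoglein of stratified epithelia, had values of 6.52, 6.48 and 6.22 in cntrl and of 6.81, 6.93 and 6.53 in mimic145 cells. These groups were separated by little, and the difference of 0.35 (SE 0.11) just passed (adjusted p = 0.0471). In silenced cells the difference was nearly the same, 0.36 (SE 0.11, adjusted p = 0.0734). The gene rested on 3 kept probes of low signal, and its call held in 8 of 24 alternative limma settings.

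**Figure D2:**
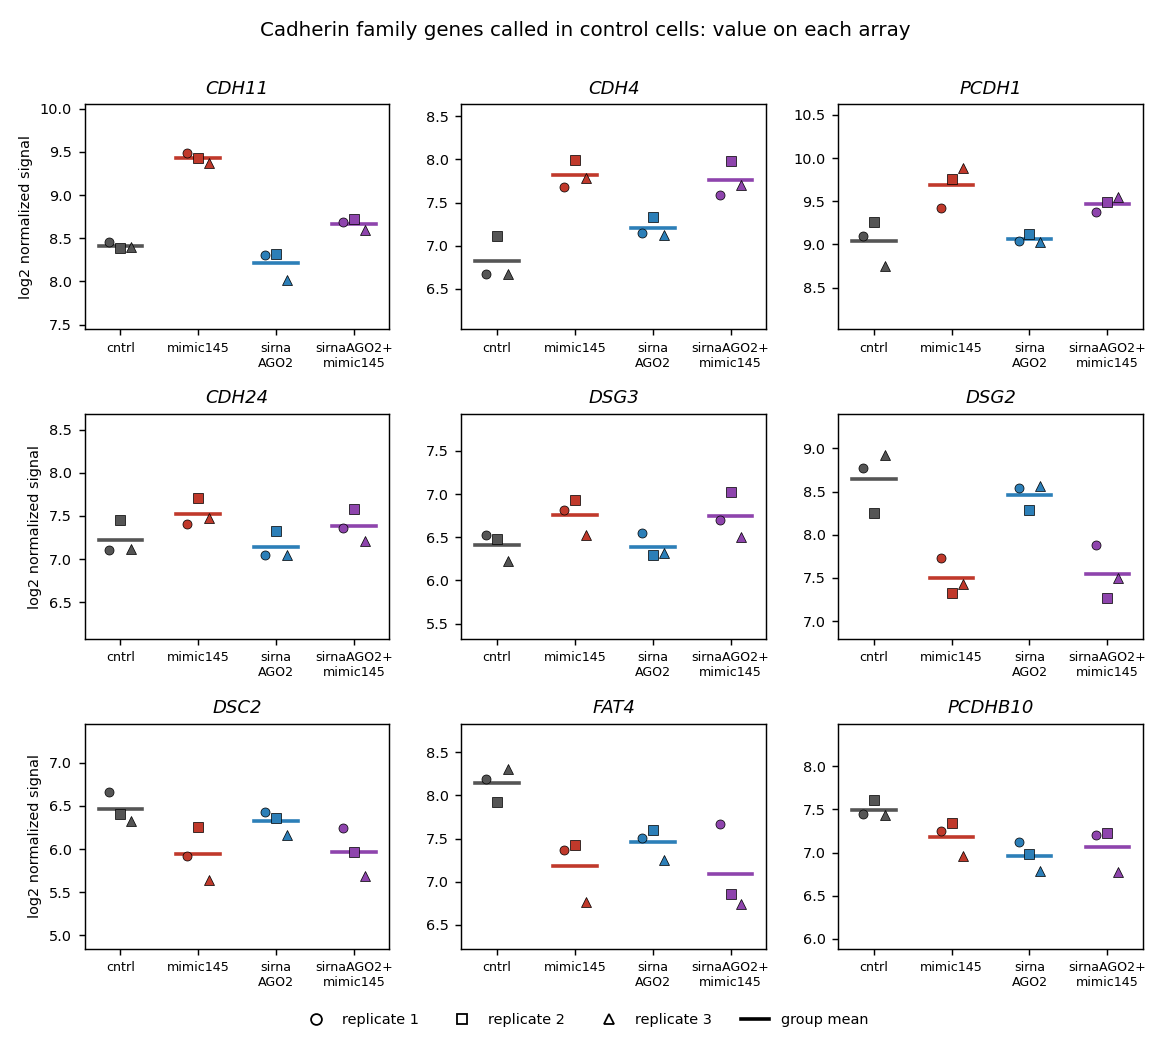
Normalized log2 signal (y axis, each panel spanning the same range of 2.6) on each of the 12 arrays for the 9 genes called in control cells, by group (x axis). Symbols mark the replicate number and lines the group means. CDH11 and CDH4 are higher and DSG2 lower with the mimic in both backgrounds. PCDH1 is higher in both too, and was not called in silenced cells.

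DSG2, the desmoglein found in every tissue with desmosomes, had the largest fall among the members. Its values were 8.77, 8.25 and 8.92 in cntrl and 7.73, 7.32 and 7.43 in mimic145 cells. All mimic145 arrays lay below all cntrl arrays, and 45.0% of the signal was left. DSG2 fell by 1.15 (SE 0.12, adjusted p = 0.000408). In silenced cells it went from 8.54, 8.28 and 8.56 to 7.88, 7.27 and 7.50, again without overlap, with 53.1% left. It fell there by 0.91 (SE 0.12, adjusted p = 0.00816). The difference of the effects was 0.24 (SE 0.17, adjusted p = 0.486), and the silencing itself left DSG2 at a difference of -0.18 (adjusted p = 0.435).

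Of the 17 kept DSG2 probes 16 were lower with the mimic in both backgrounds, and 15 were lower in every replicate. The differences of the probes ran from -1.90 to 0.36 in control cells and from -2.08 to 0.15 in silenced cells. In control cells 2 probes detected on all cntrl arrays were not detected on any mimic145 array, so that their differences are limited by the background.

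DSC2, the widely expressed desmocollin, had values of 6.66, 6.41 and 6.32 in cntrl and of 5.92, 6.25 and 5.64 in mimic145 cells. The groups did not overlap, though replicate 2 differed by only -0.15. DSC2 fell by 0.52 (SE 0.12, adjusted p = 0.0134) in control cells. In silenced cells it differed by -0.35 (SE 0.12, adjusted p = 0.0969), with all 3 replicates lower.

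The probes of DSC2 did not move as one. Of its 17 probes 6 were kept, and none was detected on all 12 arrays. Both probes assigned to transcript NM_004949 were lower, at -0.82 and -1.34 in control cells and at -0.86 and -1.0 in silenced cells. Of the 4 kept probes of NM_024422, 1 differed by -0.77 and the others differed by -0.11 to -0.05 in control cells. The mean over the kept probes was -1.08 for the first transcript and -0.25 for the second. The array assigns a probe to 1 transcript even where transcripts share the exon, so these values are no measure of isoforms. The other desmocollins, DSC1 and DSC3, and the desmoglein DSG4 were not called in any comparison.

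**Figure D3:**
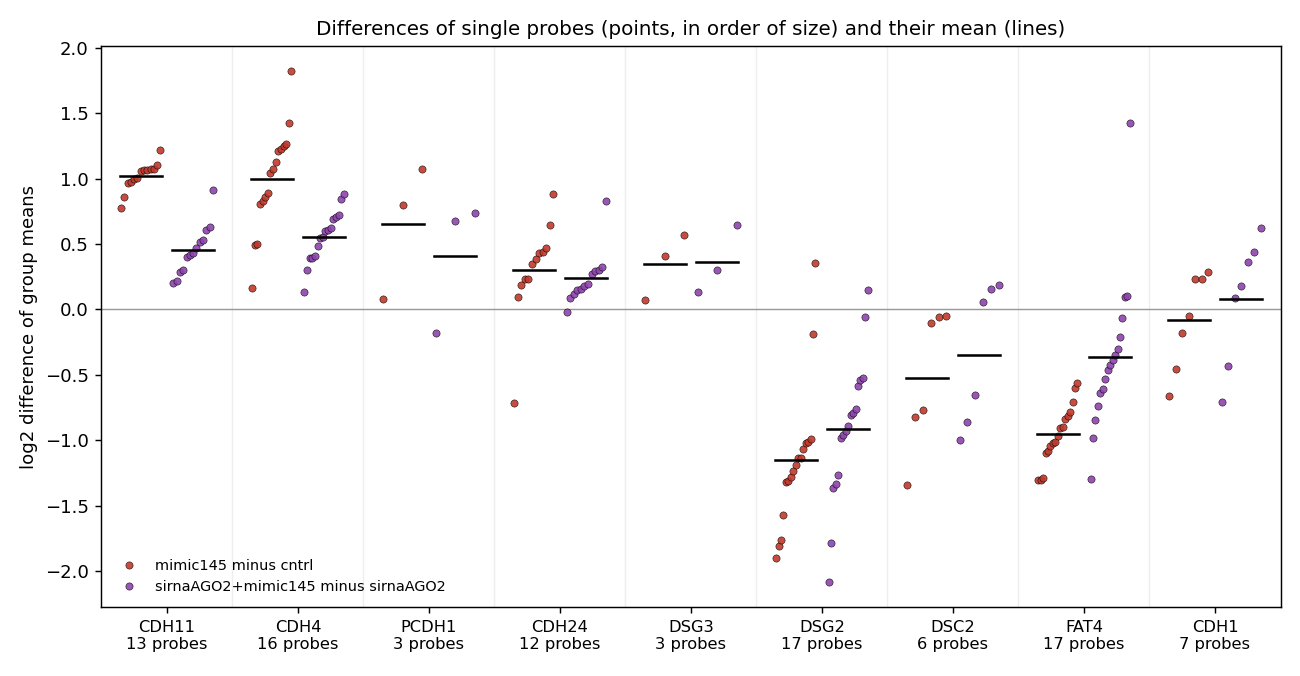
Log2 differences of group means for each kept probe (points, sorted by size) and their mean (lines), for mimic145 minus cntrl and for sirnaAGO2+mimic145 minus sirnaAGO2 (y axis, log2). All probes of CDH11 and CDH4 lie above 0 in both comparisons, 16 of 17 DSG2 probes lie below 0, and the probes of DSC2, PCDH1 and CDH1 spread widely.

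Both desmosomal cadherins that fell belong to a structure whose other parts were measured as well. The set of 12 tested desmosomal genes held the 6 tested desmogleins and desmocollins, desmoplakin, plakoglobin, PKP1 to PKP3 and PERP. With the mimic in control cells 5 fell and 1 rose (50%, beside 22.6% of all genes). The members DSG2, DSC2 and DSG3, called above, are part of this count, so that it is a description. Desmoplakin (DSP), which ties the plaque to keratin, fell by 1.18 (SE 0.09, adjusted p = 0.000103). The plakophilin PKP2 fell by 0.36 (adjusted p = 0.0264) and PERP, a membrane protein of desmosomes, fell by 0.31 (adjusted p = 0.0165). Plakoglobin (JUP) was not called, with a difference of 0.18 (adjusted p = 0.215).

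In silenced cells DSG2 and DSP were the desmosomal genes called (16.7%, beside 7.28% of all genes). DSP fell there by 0.66 (SE 0.09, adjusted p = 0.00923). AGO2 silencing alone lowered DSP by 1.08 (SE 0.09, adjusted p = 0.00136) and PERP by 0.47 (adjusted p = 0.0201). They were the desmosomal genes called after silencing (16.7%, beside 2.57% of all genes). DSG2 thus fell with the mimic and was not called after silencing, while DSP was lower in all 3 comparisons. The comparisons of mimic145 and of sirnaAGO2 with cntrl share their cntrl arrays.

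**Figure D4:**
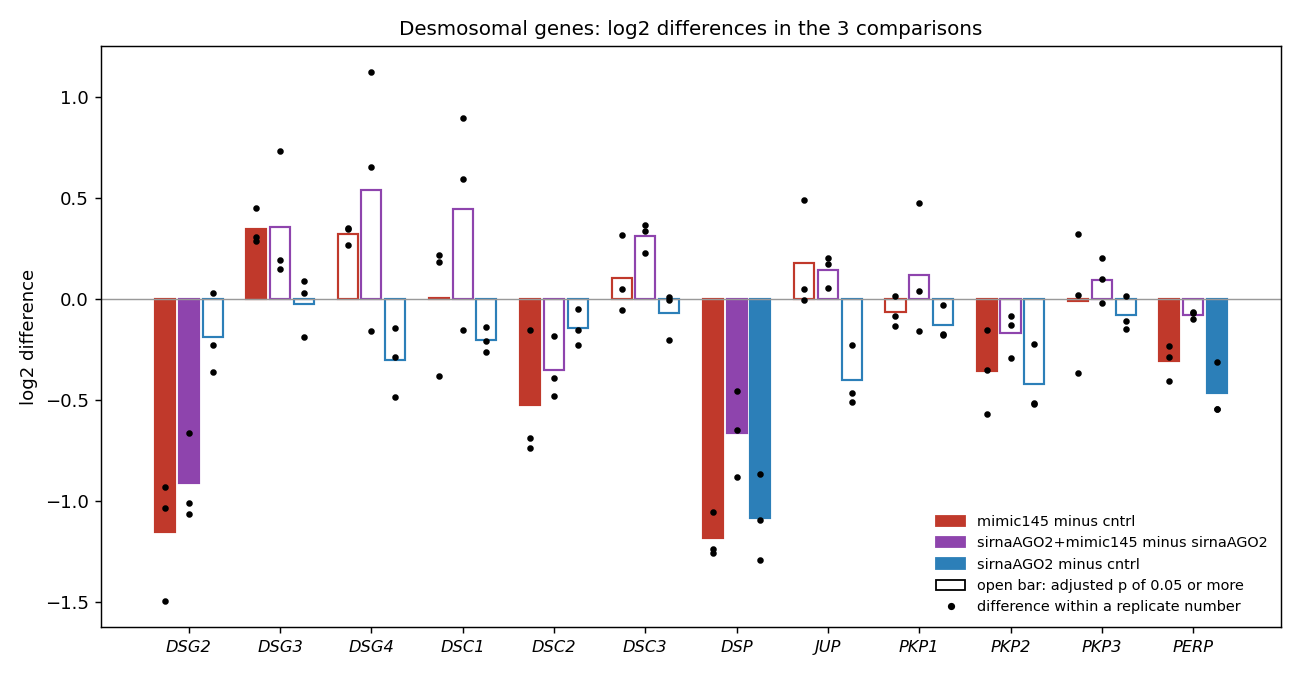
Log2 differences (bars, y axis) of 12 desmosomal genes in the 3 comparisons, with the differences within each replicate number as points; filled bars passed the adjusted threshold. DSG2, DSC2, DSP, PKP2 and PERP fell with the mimic in control cells, and DSP is the gene with filled bars in all 3 comparisons.

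The 250 bases upstream of the transcription start are shown for DSG2 and DSC2, which fell, and for CDH4 and PCDH1, which rose. These are the members called in control cells whose window held the motif marked below. DSG3 and PCDHB10 had windows without it and are not shown. The sequences are from RefSeq (GRCh38.p14), read in the direction of the gene, for the window farthest upstream where a gene has several. Capitals mark CACCTG or its reverse complement CAGGTG, a form of the E-box that repressors of epithelial genes are known to bind. DSG2 lies on the forward strand at chr18:31497927-31498176, DSC2 on the reverse strand at chr18:31102422-31102671, CDH4 on the forward strand at chr20:61499171-61499420 and PCDH1 on the reverse strand at chr5:141869628-141869877.

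DSG2: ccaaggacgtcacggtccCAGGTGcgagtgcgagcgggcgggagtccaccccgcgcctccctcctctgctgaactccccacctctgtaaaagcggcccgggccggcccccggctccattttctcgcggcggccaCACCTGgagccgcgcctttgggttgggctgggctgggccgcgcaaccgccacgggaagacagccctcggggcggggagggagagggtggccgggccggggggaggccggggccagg

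DSC2: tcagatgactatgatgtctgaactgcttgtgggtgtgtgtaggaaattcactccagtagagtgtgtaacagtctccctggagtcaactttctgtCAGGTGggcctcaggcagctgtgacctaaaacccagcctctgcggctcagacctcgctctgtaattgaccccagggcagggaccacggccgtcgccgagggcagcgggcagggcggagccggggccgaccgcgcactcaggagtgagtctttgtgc

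CDH4: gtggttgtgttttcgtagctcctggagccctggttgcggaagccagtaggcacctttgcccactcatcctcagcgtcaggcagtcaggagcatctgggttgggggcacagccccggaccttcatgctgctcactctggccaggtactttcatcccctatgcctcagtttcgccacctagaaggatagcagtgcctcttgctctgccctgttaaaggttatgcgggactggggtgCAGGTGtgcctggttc

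PCDH1: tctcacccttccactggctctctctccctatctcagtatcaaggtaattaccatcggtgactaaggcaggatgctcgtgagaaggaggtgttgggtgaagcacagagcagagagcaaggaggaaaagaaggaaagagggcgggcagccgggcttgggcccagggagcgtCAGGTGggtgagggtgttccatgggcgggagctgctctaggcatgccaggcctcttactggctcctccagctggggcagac

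DSG2 holds 2 such matches, 232 and 116 bases before the start, and the other 3 hold 1 each, DSC2 at 156, CDH4 at 16 and PCDH1 at 81 bases. Of the 9 members called in control cells, 6 had a window in the table, CDH4, DSC2, DSG2, DSG3, PCDH1 and PCDHB10, and 4 of these held the motif on either strand. Over all 35116 windows of this length 17.5% held it. The GC-rich motif GGGCGG or its reverse complement was found for DSG2, DSC2 and PCDH1, against 42.6% of all windows. None of the 6 windows held TATAAA on either strand, against 3763 of all windows. The motifs do not overlap each other here, and a match of letters is a description of the window, with rising and falling genes among those that have it. CDH11, CDH24 and FAT4 were without a window.

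FAT4, a giant cadherin that partners with the dachsous cadherins in growth control and planar polarity, had values of 8.19, 7.92 and 8.31 in cntrl and of 7.37, 7.43 and 6.76 in mimic145 cells. The groups were separate, and the differences within a replicate ran from -1.55 to -0.50. FAT4 fell by 0.96 (SE 0.21, adjusted p = 0.0127), and 51.6% of its signal was left. All 17 probes, assigned to 3 transcripts, were lower, at -1.3 to -0.56.

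After AGO2 silencing alone FAT4 was at 7.51, 7.60 and 7.25, below every cntrl array. This difference of -0.69 (SE 0.21) did not pass (adjusted p = 0.13), with all 17 probes lower. With silencing and mimic together it was at 7.67, 6.86 and 6.74, and replicate 1 went up where the others went down. The difference there was -0.37 (SE 0.21, adjusted p = 0.288). One probe was higher by 1.43 in that comparison, while 14 of the 17 were lower.

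FAT1, the best measured FAT gene with 27 kept probes, differed by 0.08 with the mimic in control cells (SE 0.09, adjusted p = 0.593) and by -0.05 in silenced cells. FAT2 and FAT3 were not called either. Of the CELSR genes, which act with the frizzled and VANGL proteins in planar polarity, none was called. CELSR2, with 25 kept probes, differed by 0.13 in control cells (SE 0.08, adjusted p = 0.325) and by 0.25 in silenced cells (adjusted p = 0.0997).

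Of 13 planar polarity partners on the list (DCHS1, DCHS2, FJX1 and the VANGL, PRICKLE, FZD, DVL and SCRIB genes), 5 fell and 1 rose with the mimic in control cells (46.2%, beside 22.6% of all genes). FZD6 fell by 0.74 (adjusted p = 0.00205), PRICKLE1 by 0.60, VANGL1 by 0.42, PRICKLE2 by 0.37 and VANGL2 by 0.35, and DVL1, which relays frizzled signals, rose by 0.58 (adjusted p = 0.00266). In silenced cells FZD6 fell by 0.53 and VANGL1 by 0.40 (15.4% of the list, beside 7.28% of all genes). After silencing alone none of the 13 was called, with 5 at an unadjusted p under 0.05 (38.5%, beside 19% of all genes).

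The other classical cadherins were not called in any comparison. CDH1 (E-cadherin), the cadherin of epithelial junctions, had 7 of 16 probes kept. Its values were 8.27, 8.31 and 8.01 in cntrl and 8.04, 8.26 and 8.05 in mimic145 cells, which overlap widely, for a difference of -0.08 (SE 0.07, adjusted p = 0.444). Its probes were divided, 3 higher and 4 lower, from -0.66 to 0.29. CDH2 (N-cadherin), the cadherin of mesenchymal and neural cells, had 3 of 17 probes kept and differed by 0.11 (SE 0.07, adjusted p = 0.287) in control and by 0.23 (adjusted p = 0.0796) in silenced cells. CDH3 (P-cadherin), of basal epithelial cells, also had 3 of 17 kept and differed by 0.03 (SE 0.19, adjusted p = 0.918). CDH23, the hair cell tip link cadherin with the most kept probes of the family, 31, differed by 0.12 (SE 0.10, adjusted p = 0.423).

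In cells with AGO2 silenced the mimic changed 6 of the 68 members, 5 higher and 1 lower. This is 8.82%, beside 7.28% over all genes (4.25% higher and 3.03% lower). CDH11, CDH4 and DSG2 were called in both backgrounds, and PCDH11X, PCDH8 and PCDHB12 in silenced cells. The members lay higher on the whole: 52 of 68 estimates were above 0, with a median of 0.15, against a median of 0.02 over all genes. Dim genes lay higher too: in the 4564 genes of lowest mean level, which held 32 of the 68 members, the median of all genes was 0.15 and that of the members 0.22. In control cells the medians of that set were 0.0041 and 0.019. The part of signal level in the members' shift was not tested.

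PCDH11X, a protocadherin of the X chromosome expressed in brain, had values of 6.01, 5.93 and 5.55 in sirnaAGO2 and of 6.36, 6.75 and 6.22 in sirnaAGO2+mimic145 cells, without overlap. It rose by 0.61 (SE 0.10, fold 1.53, adjusted p = 0.0167). In control cells it was at 6.36, 6.40 and 5.97 without and at 6.06, 6.01 and 5.89 with the mimic, and the difference of -0.26 was not called (SE 0.10, adjusted p = 0.106). The difference of the effects, 0.87 (SE 0.14), had the smallest p of all members (unadjusted 0.000199, adjusted 0.0698). The gene rested on 2 of 3 probes, neither detected on all 12 arrays. The probe that was not kept was higher with the mimic in both backgrounds, by 0.44 in control and 0.36 in silenced cells. Its difference of the effects was -0.07.

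PCDH8, a protocadherin of synapses, was at 6.67, 6.88 and 6.56 in sirnaAGO2 and at 7.13, 7.48 and 7.21 in sirnaAGO2+mimic145 cells, again without overlap. It rose by 0.57 (SE 0.13, adjusted p = 0.0367), on 1 kept probe, and differed by 0.02 in control cells (adjusted p = 0.917). PCDHB12, of the beta cluster, was at 6.30, 6.55 and 6.27 and at 6.75, 7.20 and 6.57, where the lowest array with the mimic was just above the highest without. It rose by 0.47 (SE 0.12, adjusted p = 0.0494), also on 1 kept probe. In control cells its means were 6.68 without and 6.82 with the mimic, a difference of 0.14. In silenced cells they were 6.37 and 6.84, and silencing alone gave a difference of -0.31 that was not called. The calls of PCDH8 and PCDHB12 held in 9 and 7 of 24 alternative limma settings. PCDH15, a tip link protein of the inner ear, had the most kept probes of the protocadherins outside the clusters, 5 of 38. Of its probes 1 was detected on all 12 arrays. PCDH15 differed by -0.28 in control cells (SE 0.11, adjusted p = 0.0908) and by 0.07 in silenced cells (adjusted p = 0.698).

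The call count in silenced cells depended on single arrays. It was 0 without the sirnaAGO2 array of replicate 2 and 0 without that of replicate 3, and 2 (CDH4 and DSG2) without the sirnaAGO2+mimic145 array of replicate 2 or without that of replicate 3. Without the sirnaAGO2+mimic145 array of replicate 1 it was 16. The differences of CDH11, CDH4 and DSG2 kept their sign under all of these. Over the 24 alternative limma settings they ran from 0.38 to 0.51 for CDH11, 0.38 to 0.69 for CDH4 and -1.04 to -0.57 for DSG2. How many of all genes were called without each array is not given here.

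**Figure D5:**
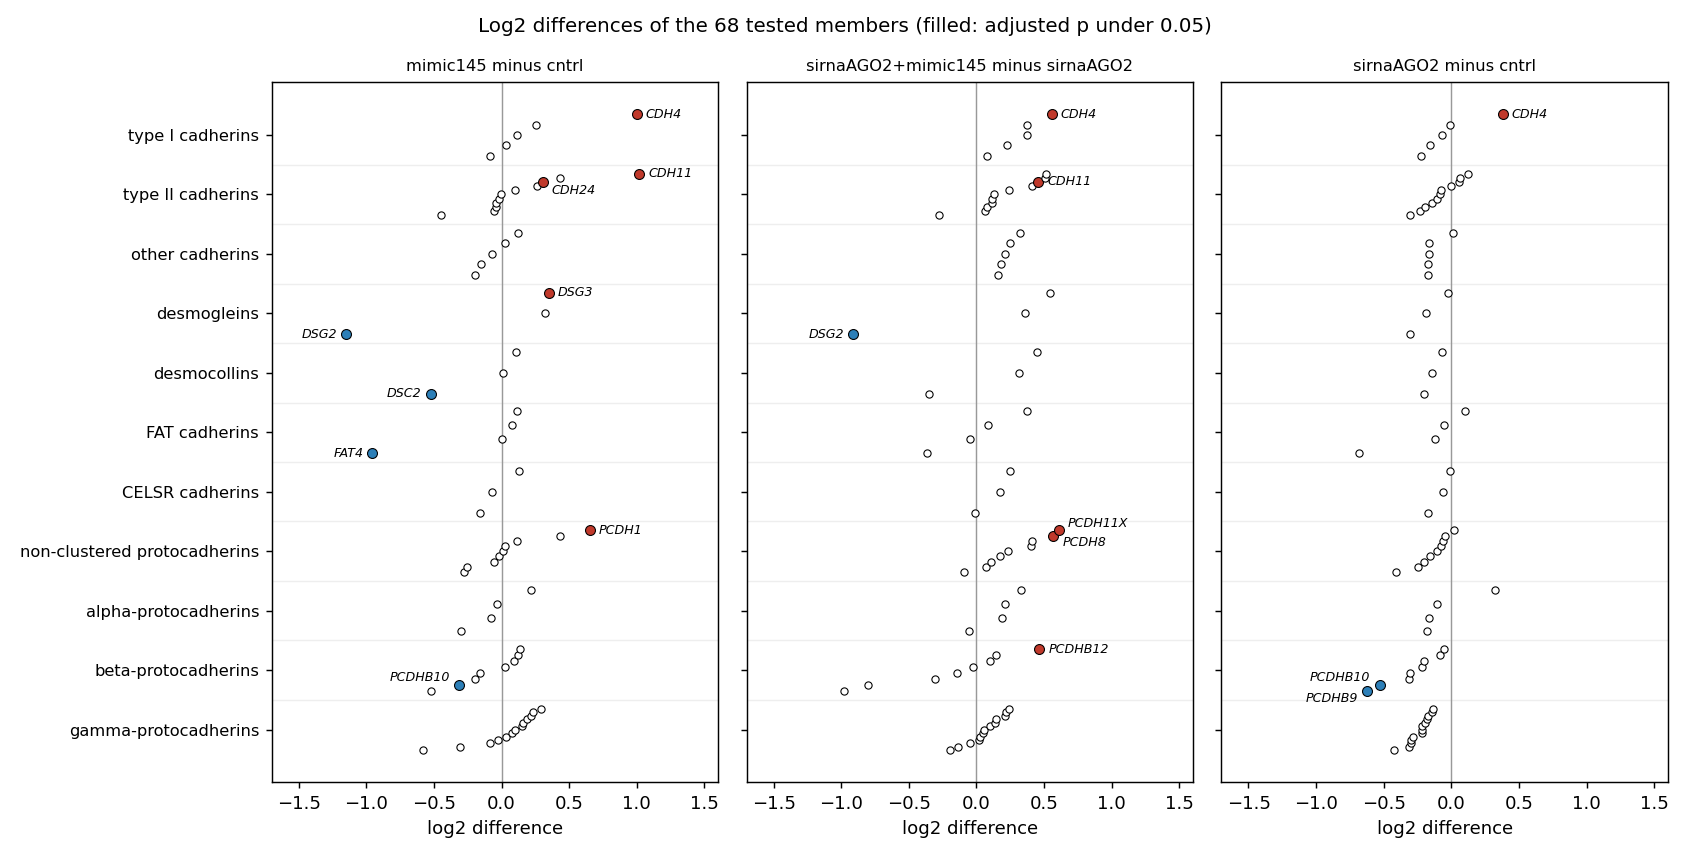
Log2 differences (x axes) of the 68 tested members by family (rows) in the 3 pairwise comparisons; filled and labelled points passed an adjusted p of 0.05, red higher and blue lower. In the middle panel 52 of 68 points lie above 0, and in the right panel 60 of 68 lie below 0.

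AGO2 silencing without the mimic changed 3 of the 68 members, 1 higher and 2 lower. This is 4.41%, beside 2.57% over all genes (0.888% higher and 1.69% lower). CDH4 rose, as given above, and 2 beta-protocadherins fell. With 75th percentile scaling the 3 calls were all lower. PCDHB9 was at 8.46, 8.46 and 8.5 in cntrl and at 7.81, 7.93 and 7.81 in sirnaAGO2 cells, with a wide gap between the groups. It fell by 0.62 (SE 0.09, adjusted p = 0.0152), and 65.0% of its signal was left. PCDHB10, its neighbour in the cluster, was at 7.44, 7.61 and 7.44 and at 7.12, 6.98 and 6.79, and fell by 0.53 (SE 0.09, adjusted p = 0.0243). Each rested on 1 probe, detected on all 12 arrays.

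PCDHB10 also fell with the mimic in control cells, to 7.25, 7.34 and 6.96, by 0.31 (SE 0.09, adjusted p = 0.0359), in all 3 replicates. On top of silencing the mimic left it at 7.20, 7.22 and 6.77, a difference of 0.10 (adjusted p = 0.476). PCDHB9 differed by -0.19 with the mimic in control cells (adjusted p = 0.152) and by -0.03 in silenced cells. Arrays of cntrl and sirnaAGO2 cells were on different slides, and with the slide as a random block none of the 3 calls held, with 35 genes called on the whole array. The count was also 0 on leaving out any 1 cntrl array, or the sirnaAGO2 array of replicate 1 or 3, and 1 (PCDHB9) without that of replicate 2.

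After silencing all 8 beta and all 13 gamma genes tested had estimates below 0, with medians of -0.26 and -0.22, while 60 of the 68 members and 10475 of all 18253 genes were below 0. The median was -0.16 over the members and -0.03 over all genes. Of the 13 gamma genes none was called, and 4 had an unadjusted p under 0.05 (30.8%, beside 19% of all genes). PCDHGA8, the gamma gene with 2 kept probes, differed by -0.30 (SE 0.10, adjusted p = 0.164). The alpha genes PCDHA5 and PCDHAC2, with 2 kept probes each, differed by -0.11 and -0.18. Of the other alpha genes PCDHA11 differed by -0.16 and PCDHA10 by 0.32 (SE 0.25, adjusted p = 0.521), on 1 kept probe each. In the 4564 genes of lowest mean level the median of all genes was -0.10 and that of the members -0.16. In the next 4563 genes by level the medians were -0.04 and -0.17. In the 4563 above these they were -4e-04 and -0.19. Among the genes of highest level, with 3 members, they were 0.0041 and -0.05. The part of signal level in the members' shift was not tested here either. As the genes of a cluster may share probe signal, they are not separate measurements. The sirnaAGO2 arrays enter this comparison and that of the mimic in silenced cells with opposite sign. The members' shifts in these comparisons are thus not independent.

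No member differed in its mimic effect between silenced and control cells at the adjusted threshold of limma, where 0.011% of all genes (2 of 18253) did. At an unadjusted p under 0.05 there were 10 members (14.7%, beside 16.8% of all genes), and the methods' paired t-test gave 4 at its unadjusted threshold and 0 after adjustment. PCDH11X, CDH11 and CDH4 had the smallest p. With the normexp background PCDH11X and CDH11 were called, and with only probes detected on all arrays CDH11 was. A smaller effect in silenced cells was thus not established for CDH11 and CDH4, nor was an equal effect for DSG2.

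Cadherins act through partners, and 56 partner and related genes on 5 lists were tested beside the members. With the mimic in control cells 5 rose and 15 fell, 35.7% against 22.6% over all genes. In silenced cells 1 rose and 6 fell (12.5% against 7.28%), and after silencing alone 3 fell (5.36% against 2.57%). The lists were chosen with earlier results of these data known, so that their counts are descriptions.

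Among 19 catenins and plaque proteins, 3 rose and 6 fell in control cells (47.4%, beside 22.6% of all genes). CTNNB1 (beta-catenin), which links classical cadherins to alpha-catenin and also acts in Wnt signalling, rose by 0.97 (SE 0.10, adjusted p = 0.00042) and in silenced cells by 0.49 (adjusted p = 0.029). Vinculin (VCL) rose by 0.48 and alpha-actinin ACTN1 by 0.34, both linkers to actin. CTNND1 (p120-catenin), which holds classical cadherins at the membrane, fell by 0.35 (adjusted p = 0.0262). CTNNBIP1, an inhibitor of beta-catenin, fell by 0.84, and the alpha-catenin relative CTNNAL1 fell by 0.51. The alpha-catenin CTNNA1 differed by 0.17 (adjusted p = 0.192).

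Of 9 genes for the cleavage of cadherins none rose and 3 fell in control cells (33.3%, beside 22.6% of all genes). ADAM10, the protease that sheds the outer part of several cadherins, fell by 0.61 (SE 0.09, adjusted p = 0.0022). The gamma-secretase subunits APH1A and NCSTN fell by 1.23 (SE 0.07, adjusted p = 3.25e-05) and by 0.64 (adjusted p = 0.00113). In silenced cells ADAM10 fell by 0.45 and APH1A by 0.72 (22.2% of the list, beside 7.28% of all genes). Of 7 trafficking genes 1 rose and 2 fell in control cells (42.9%, beside 22.6% of all genes). RAB11A rose by 0.27 and ARF6 fell by 0.52, while CTNND1, also on this list, is given above. None of 9 other cadherin superfamily genes (CDHR, CLSTN and RET) was called in any comparison.

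The cell line's markers were checked beside these results. All 6 mesenchymal markers (VIM, FN1, ZEB1, CDH2, S100A4 and CD44) were tested. Of 9 luminal and epithelial markers, PGR and ESRP1 had no kept probe. With the mimic in control cells FN1 rose by 0.45 (adjusted p = 0.0265), KRT18 rose by 0.50 (adjusted p = 0.000638) and EPCAM, an epithelial adhesion protein, fell by 0.83 (adjusted p = 0.000906). These are 1 of the 6 mesenchymal markers (16.7%) and 2 of the 7 tested luminal and epithelial markers (28.6%), beside 22.6% of all genes. The other tested markers were not called there, and none was called in the other comparisons.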

How the data were processed

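Total RNA of 12 MDA-MB-231 samples was measured on Agilent 1-color human exon arrays. The authors deposited the scanner output, from which the intensity of the processed signal (background-subtracted by Feature Extraction 10.7.3.1) was taken, and a table of normalized log2 values, which the authors made and which served as an alternative. Fold changes in log2 below are this work's own.

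Control spots and outlier flags were left out, the intensities were floored at 1, quantile normalized and then log2 transformed, and repeated spots were averaged. Probes were named through their RefSeq transcript. Probes detected in all 3 replicates of some group were kept and averaged per gene. limma 3.58.1 (R 4.3.3) was fitted to all 18253 genes and 12 arrays with group and replicate number, and p-values were adjusted by Benjamini-Hochberg. The block follows the paired test of the study's methods. Deviations from group means correlated between same-numbered arrays in all 18 pairs (0.139 to 0.577) and from -0.495 to 0.201 otherwise. On simulated data, with 200 of 18253 genes changed by 1 between mimic145 and cntrl, 88% were found, with 15 false among 191 calls. In the data 22.6% of genes were called in this comparison, and called members such as CDH24 differed by 0.30. The 88% does not carry over to differences of that size.

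Each of 6 slides held a cntrl and mimic145 pair or a sirnaAGO2 and sirnaAGO2+mimic145 pair of 1 replicate number, with the mimic always in the second position, so position and mimic cannot be told apart, and silencing was compared across slides. All arrays were scanned on 1 day, and the lowest correlation between arrays was 0.946.

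Members and lists were chosen with earlier results of these data known. Genes named are the called members, those with the 3 smallest p in a comparison and those with the most kept probes in each family. CDH11, PCDH1, CDH1 to CDH3 and the called partners are named too. Plakoglobin, CTNNA1, PCDHA10, PCDHA11 and the remaining desmosomal cadherins were added after their values were seen. Alternatives were other scalings, background, filters, gene summaries, blocks, samples, the methods' t-test and the deposited table. Promoter and microRNA sequences are from RefSeq (GRCh38.p14). The values of 1 called partner gene are not reported here.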

Additional observations from a re-analysis of the deposited data

Results flagged for a closer look

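PCDH11X had estimates of opposite sign in the 2 backgrounds, -0.26 in control cells, where it was not called (limma adjusted p = 0.106), and 0.61 in silenced cells (adjusted p = 0.0167). With the mimic it was lower in control cells in all 3 replicates, at -0.30, -0.38 and -0.08, and higher in silenced cells in all 3, by 0.35, 0.81 and 0.67. The difference of the effects was 0.87 on the log2 scale and, tested in limma as an interaction, had an unadjusted p of 0.000199 and an adjusted p of 0.0698, so that it did not pass. These values are from the 2 kept probes. The probe that was not kept was higher in both backgrounds, by 0.44 in control and 0.36 in silenced cells. With 3 arrays a group no test for single outlying arrays was made.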

How the results depend on the processing

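No called value of a member turned its sign under the limma alternatives. PCDH15, at 0.07 and not called in silenced cells, was at -0.50 (limma adjusted p = 0.0335) with probes detected on all arrays only. In control cells CDH11, CDH4 and DSG2 were called in 24 of 24 limma alternatives, FAT4 in 21, PCDH1 in 20, CDH24 in 18, DSC2 in 13 of 23, PCDHB10 in 10 and DSG3 in 8. The 9 calls there became 5 without the replicate block and 4 with only the arrays compared. They were 3 to 5 without a replicate number, and 6 to 11 without a single array. The 6 calls in silenced cells became 12 with 75th percentile scaling, 11 with normexp, 11 with the deposited log2 table and 11 with probes detected on all arrays, but 0 without the replicate block and 0 with only the arrays compared. They were 0 to 16 on leaving out replicates or single arrays. The 3 calls after silencing became 5 with the deposited table, 1 without the replicate block, 1 with only the arrays compared and 0 with the slide as a random block. They were 0 to 5 on leaving out replicates or single arrays. The interaction gave 0 without the replicate block, 2 with normexp and 1 with probes detected on all arrays, and 0 on leaving out any replicate or array. The methods' paired t-test gave 9, 12, 17 and 4 members unadjusted in these comparisons, in this order, and 0 in each after adjustment. Apart from the slide block, the number of all genes called under an alternative is not given here. The counts thus do not tell a change of the members from one of the whole array. The fall of AGO2 was -0.71 with the adjusted t-test and -0.78 to -0.64 on leaving out replicates or arrays. It missed the threshold in the former, without any 1 replicate number and, at -0.68, without the sirnaAGO2 array of replicate 1. Normexp was run on the median spot signal. Low signal over background was a limit: 38 of 68 tested members rested on 1 or 2 probes.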
